A study of Mus musculus with 16 samples.

Results

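The 10 genes described here belong to the Bcl2 family, which decides whether a thymocyte lives or enters the mitochondrial pathway of apoptosis. They were taken by symbol from both count tables, 10 of 24974 genes that the tables share, and all 10 passed the filter on low counts in every comparison. On the survival side stand *Bcl2*, *Bcl2l1* (the protein Bcl-xL), *Mcl1* and *Bcl2a1b*, whose proteins hold the death proteins in check. On the death side stand the BH3-only genes *Bcl2l11* (Bim), *Bbc3* (Puma), *Pmaip1* (Noxa) and *Bid*, whose proteins sense stress, and the effectors *Bax* and *Bak1*, whose proteins open the outer mitochondrial membrane.

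The study removed *Tox4*, whose protein it studies beside RNA polymerase II, from developing T cells, and it sequenced CD8 thymocytes after flow cytometry of proliferation and cell death. Controls were Tox4 f/f mice with no Cre (labelled Tox4;F/F), and cKO mice were Tox4 f/f;Lck-Cre (labelled Tox4;F/F;Lck+ in DP and Tox4;F/F;Lck-cre in CD8 cells), in which the proximal *Lck* promoter drives Cre from the DN3 stage on and exons 4 to 6 of *Tox4* are removed. All mice were sex-matched littermates 6 to 8 weeks old on a C57BL/6 background. DP thymocytes (CD4+CD8+) were sorted from 3 control and 3 cKO samples, and CD8 thymocytes (TCRβ+CD8+) from 5 control and 5 cKO samples, 16 in all. The labels do not say that each sample is a separate animal, so p-values measure the spread between these samples. Total counts on genes were 16524506 to 18484568 in DP control, 14583336 to 25981683 in DP cKO, 9420085 to 13530783 in CD8 control and 8514135 to 11828492 in CD8 cKO samples.

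As background, DP thymocytes are known to rely on Bcl-xL and Mcl-1, and thymocytes that pass positive selection are known to gain Bcl-2 as they mature. Bim is known for its part in negative selection of self-reactive thymocytes, and the death of a cell depends on whether free BH3-only proteins exceed what the survival proteins can bind. Interleukin-7 signalling is known to raise *Bcl2* in T cells.

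The piece that joins both sides is the BH3 stretch, a short helix through which death proteins bind the groove of survival proteins. It is shown for 8 of the 10 members, without *Bcl2a1b* and *Pmaip1*. The lines give 39 coding bases of each gene on its own coding strand (GENCODE M21 transcripts, GRCm38.p6), with the codon of the conserved leucine and the pair of codons that ends in the conserved aspartate in capitals. Exactly 1 such stretch was found in the longest coding sequence of each of these 8 genes.
Bcl2 BH3: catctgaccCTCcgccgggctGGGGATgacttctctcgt
Bcl2l1 BH3: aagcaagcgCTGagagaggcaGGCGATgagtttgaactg
Mcl1 BH3: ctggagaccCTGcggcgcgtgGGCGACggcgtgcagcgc
Bcl2l11 BH3: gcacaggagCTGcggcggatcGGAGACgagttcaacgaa
Bbc3 BH3: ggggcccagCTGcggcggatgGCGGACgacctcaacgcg
Bid BH3: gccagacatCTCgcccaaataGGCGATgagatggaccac
Bax BH3: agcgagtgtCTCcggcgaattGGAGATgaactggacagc
Bak1 BH3: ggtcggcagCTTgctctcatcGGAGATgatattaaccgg
They lie at chr1:106712572-106712610 (- strand, exon 1) for *Bcl2*, chr2:152829694-152829732 (-, exon 2) for *Bcl2l1*, chr3:95659427-95659465 (+, exon 1) for *Mcl1*, chr2:128147141-128147179 (+, exon 3) for *Bcl2l11*, chr7:16313764-16313802 (+, exon 3) for *Bbc3*, chr6:120897286-120897324 (-, exon 4) for *Bid*, chr7:45465994-45466032 (-, exon 3) for *Bax* and chr17:27022528-27022566 (-, exon 4) for *Bak1*. In the coding sequence of *Bcl2a1b*, 516 bases long, 510 bases are the same as in *Bcl2a1d* and 505 as in *Bcl2a1a*, so fragments of these copies may be split between them and the *Bcl2a1b* counts are uncertain.

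*Tox4*, on chromosome 14 from 52279146 to 52295509 (mm10), was looked at first because it checks the labels. TPM is the count divided by exonic length and scaled to the same total in every sample, and it is the scale on which genes are compared here. *Tox4* stood at 104, 107 and 113 TPM in DP control samples and at 86.6, 89.1 and 77.8 TPM in DP cKO samples. Every DP cKO sample was below every DP control sample, with a log2 fold change of -0.32 (SE 0.11, adjusted p = 0.381 by edgeR). In CD8 cells it was 139, 141, 148, 142 and 129 TPM in control and 122, 137, 131, 162 and 133 TPM in cKO samples. These CD8 groups overlapped (log2 fold change -0.06, 95% interval -0.27 to 0.15), and the highest value of all belonged to the library labelled cKO 4. The count covers the whole gene, exons outside the deleted part included, so it is no direct measure of the deletion. In CD8 cells it therefore left the genotype labels unchecked. The paper reports from Western blots that deletion was efficient in unsorted and sorted thymocytes.

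Some CD8 libraries stood apart. CD8 control 1 held counts on 17741 genes, against 13708 to 14194 in the other control samples, and its summed B cell markers were 66.4 TPM, against 20.5 to 28.8 TPM. Its cKO sample of the same number lay the same way by less, with 15054 genes against 13788 to 14324 in the other cKO samples, and B cell markers of 52.6 TPM against 23.1 to 41.8 TPM. The library labelled cKO 4 had the highest *Tox4*, as said, and the lowest *Bcl2l11* of the CD8 samples.

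The labelled cell types were checked by their markers. The 9 DP markers summed to 13508 ± 1505 TPM (SD, n = 3) in DP control and 3580 ± 154 TPM (SD, n = 5) in CD8 control samples, of which *Cd8b1*, which both cell types use, was the most abundant in CD8 cells. The 7 markers of mature single-positive cells went from 317 ± 49.5 to 4718 ± 1123 TPM. *Cd4* in CD8 samples was not even, at 62.1, 70.9, 6.31, 3.64 and 10.7 TPM in control and 69.7, 81.6, 6.78, 5.79 and 8.33 TPM in cKO samples, so that in both genotypes the samples numbered 1 and 2 held more of it than those numbered 3 to 5. *Klf2*, a marker of mature cells, lay the other way, at 585, 477, 1425, 1599 and 1242 TPM in control and 429.5, 476, 1395, 1495 and 898 TPM in cKO samples. The labels give no batch that these numbers could stand for. The 6 erythroid markers summed to 0.642 TPM or less in each of the 16 samples.

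**Figure D1:**
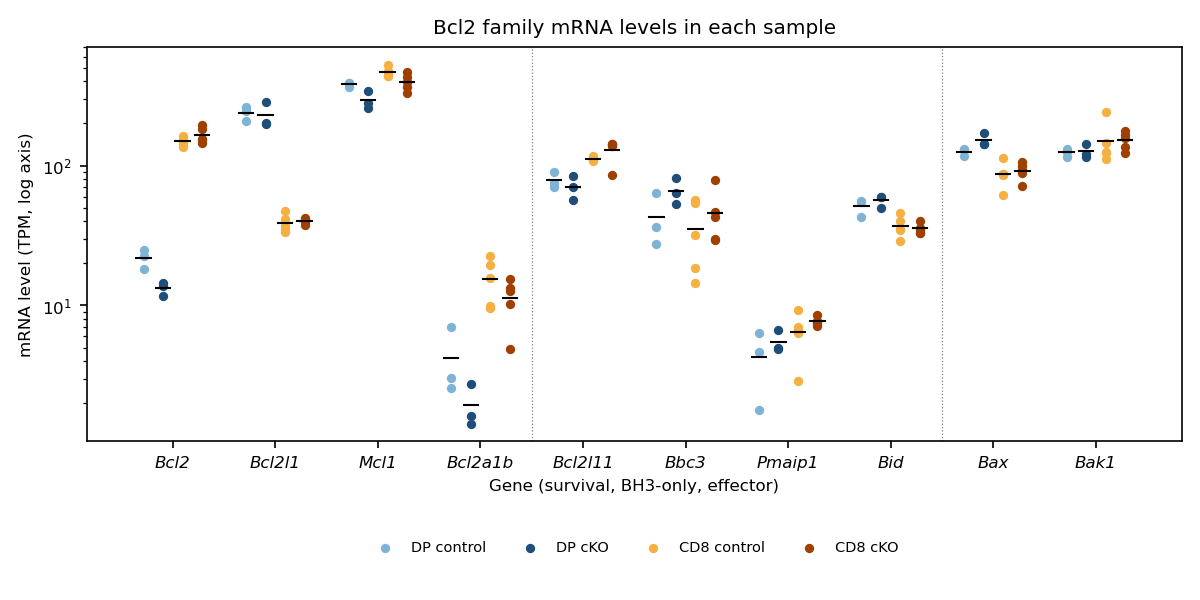
Level of each Bcl2 family gene in each of the 16 samples, in TPM on a log axis. Points are samples, black lines are group means, and dotted lines part the survival, BH3-only and effector genes; *Bcl2* lies at 11.7 to 24.7 TPM in DP and 136 to 196 TPM in CD8 samples, while *Bcl2l1* lies at 198 to 285 and 33.6 to 47.2 TPM.

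Between control DP and control CD8 cells, *Bcl2* rose and *Bcl2l1* fell. *Bcl2*, the founding member of the family (chromosome 1 from 106538176 to 106714290), was 24.7, 22.6 and 18.2 TPM in DP control and 136, 143, 163, 156 and 148 TPM in CD8 control samples. Every CD8 sample was above every DP sample. The log2 fold change was 2.70 (SE 0.12, edgeR adjusted p = 1.31e-08), a 6.51-fold rise.

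*Bcl2l1* (chromosome 2 from 152758732 to 152831728) moved the other way by a similar amount. It was 262, 209 and 244 TPM in DP control samples and 47.2, 41.7, 33.6, 37.0 and 35.1 TPM in CD8 control samples. The highest CD8 sample was far below the lowest DP sample. It fell by 2.69 on the log2 scale (SE 0.12, edgeR adjusted p = 1.65e-08), so that the ratio of *Bcl2* to *Bcl2l1* TPM went from 0.0922 ± 0.0169 (SD, n = 3) to 3.91 ± 0.766 (SD, n = 5).

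*Mcl1*, which codes for a short-lived survival protein (chromosome 3 from 95658721 to 95663178), had the highest mean of the members in all 4 groups. In DP cKO 1 *Bcl2l1* lay above it, at 285 against 278 TPM. *Mcl1* was 389.7, 365 and 386 TPM in DP control and 436, 439, 473, 523 and 447 TPM in CD8 control samples. The groups did not overlap, and the log2 fold change of 0.21 had a 95% interval of -0.01 to 0.44 and missed the threshold (edgeR adjusted p = 0.0877). *Bcl2a1b* rose from 30, 13 and 14 counts in DP control to 50, 24, 23, 42 and 63 counts in CD8 control samples, in smaller libraries, with a log2 fold change of 1.84 (SE 0.46, edgeR adjusted p = 0.00441). With so few counts and near-identical copies its level is the least certain of the members.

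Summed over the 4 survival genes, the level was 645 ± 42.5 TPM (SD, n = 3) in DP control and 667 ± 40.1 TPM (SD, n = 5) in CD8 control samples, a difference smaller than the spread between samples. Within that sum the share of *Bcl2* went from 3.39 ± 0.526% to 22.3 ± 1.13%, that of *Bcl2l1* from 36.9 ± 1.80% to 5.87 ± 1.06%, and that of *Mcl1* from 59.1 ± 1.95% to 69.5 ± 1.31%. Bulk samples cannot tell fewer cells of a type from less RNA per cell. DP and CD8 cells were also sequenced as separate experiments, so cell type and experiment cannot be told apart in any comparison between them.

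**Figure D2:**
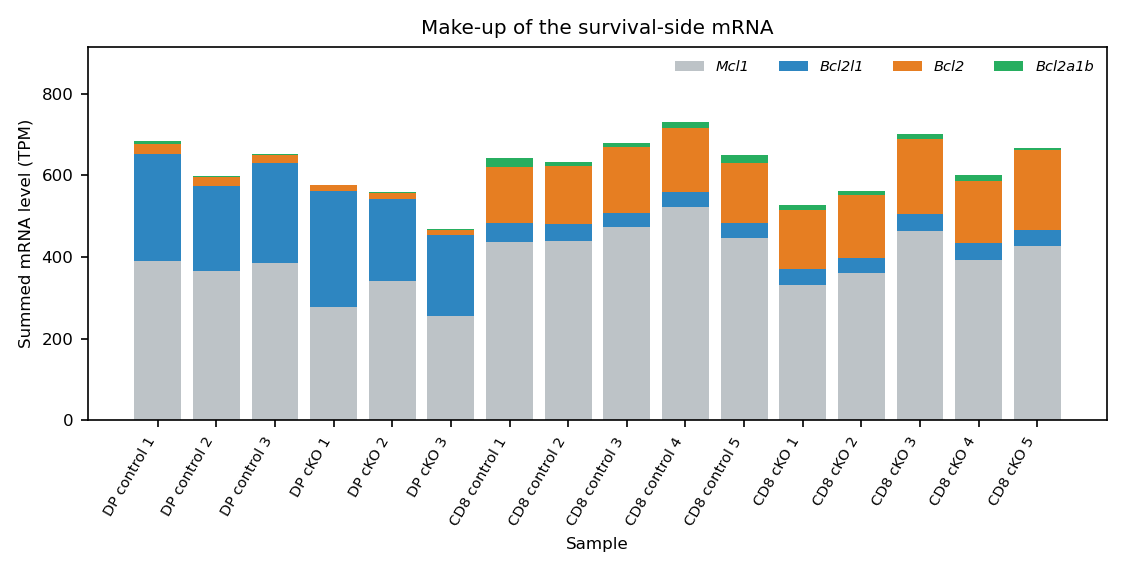
Level of the 4 survival genes stacked in each sample, in TPM, with bars starting at 0. The height is 599 to 683 TPM in DP control and 633 to 732 TPM in CD8 control samples, with *Bcl2l1* the larger part than *Bcl2* in every DP sample and the smaller in every CD8 sample.

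The promoters of *Bcl2* and *Bcl2l1* are shown because the genes moved in opposite directions, and that of *Bcl2l11* as the BH3-only gene whose protein both bind. The lines give the 250 bases before the most upstream RefSeq start (GRCm38.p6), read 5′ to 3′ on the gene's strand. Capitals mark matches on either strand to any of 3 motifs, GTAAACA of forkhead factors, TTCNNNGAA of STAT factors and TGACGT of CREB and ATF factors.
Bcl2 promoter: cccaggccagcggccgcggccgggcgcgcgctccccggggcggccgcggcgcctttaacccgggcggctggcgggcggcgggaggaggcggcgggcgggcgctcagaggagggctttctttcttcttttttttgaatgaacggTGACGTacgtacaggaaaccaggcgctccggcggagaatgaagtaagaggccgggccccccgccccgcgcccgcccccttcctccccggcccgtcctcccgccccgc
Bcl2l1 promoter: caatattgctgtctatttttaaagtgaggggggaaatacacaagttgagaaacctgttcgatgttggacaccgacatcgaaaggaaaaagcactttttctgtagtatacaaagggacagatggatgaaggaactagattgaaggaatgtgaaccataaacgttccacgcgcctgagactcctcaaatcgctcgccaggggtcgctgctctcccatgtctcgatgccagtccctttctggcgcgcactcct
Bcl2l11 promoter: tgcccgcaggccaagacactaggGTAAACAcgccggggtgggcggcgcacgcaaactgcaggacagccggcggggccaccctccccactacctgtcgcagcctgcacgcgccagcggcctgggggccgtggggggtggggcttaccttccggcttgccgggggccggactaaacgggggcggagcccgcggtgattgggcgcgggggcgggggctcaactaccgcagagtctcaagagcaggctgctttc
The windows are chr1:106714291-106714540 (-) for *Bcl2*, with 1 start listed, chr2:152831729-152831978 (-) for *Bcl2l1*, the first of 3 starts, and chr2:128125788-128126037 (+) for *Bcl2l11*, the first of 2. *Bcl2* holds 1 TGACGT, which is found in 6.47% of all 32851 windows of this length, and G and C make up 74.8% of its bases. *Bcl2l11* holds 1 GTAAACA, found in 3.17% of windows, and is 72.0% G and C. *Bcl2l1* holds neither, is 47.6% G and C, and has 1 CANNTG (E proteins), which 66.2% of windows hold and which is not in capitals. TTCNNNGAA, held by 7.02% of windows, was in none of the 3. A match is letters in a window and was tied to no factor here.

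On the BH3-only side, *Bcl2l11* (chromosome 2 from 128126038 to 128162547) was 70.1, 74.8 and 89.8 TPM in DP control and 109, 117, 109, 108 and 113 TPM in CD8 control samples. The groups did not overlap. Its log2 fold change of 0.43 (SE 0.11, edgeR adjusted p = 0.0047) passed the test but not the 1.5-fold threshold. *Bid*, which links death receptors to mitochondria (chromosome 6 from 120893119 to 120916824), was 54.7, 55.9 and 43.1 TPM in DP control and 29.1, 39.9, 45.5, 34.6 and 35.2 TPM in CD8 control samples. By normalized counts all CD8 samples were below all DP samples, although on the TPM scale CD8 control 3 lay above DP control 3, and the log2 fold change was -0.55 (SE 0.15, edgeR adjusted p = 0.0071), again under 1.5-fold. *Bid* passed that threshold without DP control 3 (-0.64) or without CD8 control 3 (-0.62). *Bbc3*, a target of p53 (chromosome 7 from 16309583 to 16318334), spread widely, at 27.7, 36.3 and 63.6 TPM in DP control and 14.4, 18.5, 56.5, 54.4 and 32.1 TPM in CD8 control samples (log2 fold change -0.36, 95% interval -1.28 to 0.57, and 0.08 without DP control 3). *Pmaip1*, whose protein binds Mcl-1 (chromosome 18 from 66458604 to 66465558), was low throughout, at 1.80 to 6.33 TPM in DP control and 2.90 to 9.22 TPM in CD8 control samples (log2 fold change 0.51, 95% interval -0.44 to 1.46).

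Among the effectors, *Bax* (chromosome 7 from 45461695 to 45466898) was 128, 117 and 131 TPM in DP control and 86.7, 61.9, 86.3, 114 and 85.9 TPM in CD8 control samples, with no overlap. Its log2 fold change of -0.60 (SE 0.18, edgeR adjusted p = 0.0126) lay just past 1.5-fold. The call was lost without DP control 3 (-0.54, edgeR adjusted p = 0.0508), without CD8 control 2 (-0.48) and without CD8 control 3 (-0.57). *Bak1* (chromosome 17 from 27019812 to 27028627) was 115, 132 and 125 TPM in DP control and 242, 146, 123, 111 and 124 TPM in CD8 control samples. The groups overlapped, and its log2 fold change of 0.19 became -0.06 without CD8 control 1.

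In all, 4 of the 10 members were called between control CD8 and control DP cells, 2 higher (*Bcl2* and *Bcl2a1b*) and 2 lower (*Bcl2l1* and *Bax*). To be called, a gene needed a mean of 1 TPM or more, a 1.5-fold difference or more, and an adjusted p below 0.05. Of the 11364 genes at that level, 22.8% were called higher and 23.1% lower, so the share of members called is near that of all genes. The members' median log2 fold change was 0.20, against -0.02 over all genes at that level. Inside the survival side the changes of *Bcl2* and *Bcl2l1* ran in opposite directions.

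In cKO samples, none of which enters the control comparison, *Bcl2* also rose and *Bcl2l1* also fell between DP and CD8 cells. *Bcl2* was 13.8, 14.5 and 11.7 TPM in DP cKO and 144, 154, 182, 152 and 196 TPM in CD8 cKO samples (log2 fold change 3.45, SE 0.13, edgeR adjusted p = 1.12e-09). *Bcl2l1* was 285, 201 and 198 TPM in DP cKO and 40.1, 37.7, 41.9, 40.9 and 40.1 TPM in CD8 cKO samples (log2 fold change -2.67, SE 0.13, edgeR adjusted p = 5.94e-09). Neither gene overlapped between cell types. *Bcl2a1b* (2.41) and *Bcl2l11* (0.69) were also called higher, and *Bid* (-0.84), *Bax* (-0.91) and *Bbc3* (-0.73) lower, all as log2 fold changes. These 7 members stand beside 23.3% of genes called higher and 26.8% lower in this comparison. The groups of *Bbc3* overlapped, and so did those of *Bcl2l11* by normalized counts of these 8 samples, although by those of all 16 samples they did not, and on the TPM scale the highest DP sample (84.1 TPM) lay below the lowest CD8 sample (85.8 TPM). *Bcl2l11* lost its call without DP cKO 1 (0.56). *Bbc3* lost its call without any of 6 of the 8 samples, namely DP cKO 2 or 3, CD8 cKO 1, 2 or 5, or the library labelled cKO 4 (edgeR adjusted p from 0.0525 to 0.202, and from 0.00843 to 0.117 over 9 other alternatives).

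**Figure D3:**
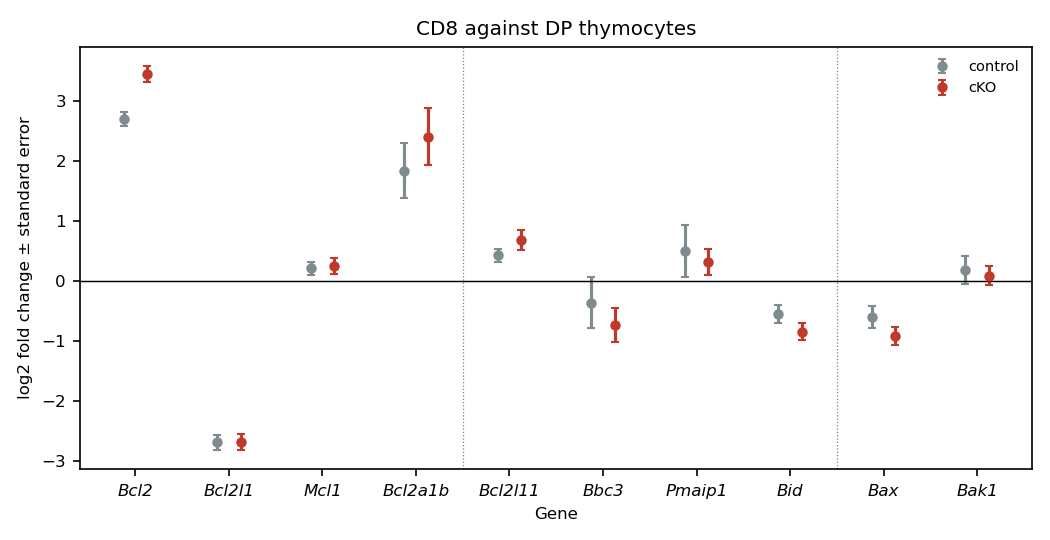
Log2 fold change of each member between CD8 and DP cells, separately in control and cKO samples, with the standard error of the edgeR fit as bars. *Bcl2* lies at 2.70 and 3.45 and *Bcl2l1* at -2.69 and -2.67.

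Other genes of the death pathways, from lists of related genes, were compared between control CD8 and control DP cells, where 22.8% of all genes were called higher and 23.1% lower. Of 9 other Bcl2 family genes tested, 2 BH3-only genes were called lower, *Bad* (log2 fold change -1.84) and *Bmf* (-1.20), and none higher; the list's median was -0.40. Of 12 genes of the apoptosome and caspases, 6 were called lower and 1 higher, against 23.1% and 22.8% of all genes. Among the lower ones were the caspase gene *Casp6* (log2 fold change -1.17), *Diablo* (-0.76), which codes for a mitochondrial protein, and the apoptosome scaffold *Apaf1* (-0.77). The higher one was the inhibitor *Birc3* (1.03).

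Of 11 death receptor genes, 5 were called higher and 3 lower, against 22.8% and 23.1% of all genes. *Casp8* (log2 fold change 1.19), the kinase *Ripk1* (1.08), the ligand *Tnfsf10* (1.80) and its receptor *Tnfrsf10b* (1.56) were among the higher ones. *Fas* (-1.36), *Tradd* (-0.65) and the ligand *Fasl* (-5.67) were the lower ones. *Fasl* was uneven among DP control samples, from 104 to 405 TPM, and 2.19 to 11.7 TPM in CD8 control samples.

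Of 16 upstream regulators tested, 9 were called higher and 4 lower, beside the same shares of all genes. The interleukin-7 receptor gene *Il7r* (log2 fold change 4.24), *Jak3* (3.0), *Foxo1* (2.92) and *Il2rg* (1.47) were the higher ones with the smallest p. *Il7r* went from 15.7 ± 5.53 TPM (SD, n = 3) to 309 ± 48.5 TPM (SD, n = 5). Among the lower ones were *Stat5b* (-0.71), *Vdac2* (-0.74) and *Fbxw7* (-0.64). The median log2 fold change was -0.57 for the apoptosome and caspase genes, 0.52 for the death receptor genes and 0.94 for the regulators, against -0.01 over all genes tested. Between cKO samples of both cell types, 1 of 8 other family genes was called higher and 3 lower, 1 and 5 of the 12 apoptosome and caspase genes, 6 and 3 of the 11 death receptor genes, and 9 and 4 of the 16 regulators, where 23.3% of all genes were called higher and 26.8% lower.

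The genes whose levels followed *Bcl2* most closely over the 16 samples were *Cd226*, *Adgrg3*, *Itgae*, *Dse* and *Samhd1*, with Pearson r of 0.997 to 0.998 on log2 normalized counts. For *Bcl2l1* they were *Ssbp2*, *Mr1*, *Cep85*, *Kremen1* and *Cyb5a* (r from 0.992 to 0.996). For *Bcl2l11* they were *Runx2*, *Kansl1*, *Cuedc1*, *Ncln* and *Lins1* (r from 0.889 to 0.910). These values are a description of 12131 genes, and the 16 points fall into a DP and a CD8 cluster that also differ in depth.

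Between genotypes in DP cells, *Bcl2* was the member with the clearest difference. It was 24.7, 22.6 and 18.2 TPM in control and 13.8, 14.5 and 11.7 TPM in cKO samples. Every cKO sample was below every control sample, and each was below the control sample of its own number. The log2 fold change was -0.67 (SE 0.14, 95% interval -0.98 to -0.37), and the adjusted p of 0.129 by edgeR missed the threshold. With the replicate number as a block it was -0.67 with an edgeR adjusted p of 0.0192, and DESeq2 gave 0.00484, so both of these called it, as did the fit of all 4 groups together, and over 7 alternatives the adjusted p of edgeR or DESeq2 ran from 0.00484 to 0.132.

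*Mcl1* was 389.7, 365 and 386 TPM in DP control and 278, 342 and 257 TPM in DP cKO samples. Here too all cKO samples were below all control samples (log2 fold change -0.35, SE 0.12, edgeR adjusted p = 0.404). *Bcl2l1* overlapped between genotypes, at 262, 209 and 244 TPM in control and 285, 201 and 198 TPM in cKO samples (log2 fold change -0.03, 95% interval -0.36 to 0.29), and the sign turned without cKO 2 (0.05) or cKO 3 (0.03). *Bcl2a1b* had 30, 13 and 14 counts in control and 8, 11 and 12 counts in cKO samples, with log2 fold change -1.07 and a 95% interval of -2.24 to 0.11.

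*Bbc3* was 27.7, 36.3 and 63.6 TPM in DP control and 53.3, 63.9 and 80.8 TPM in DP cKO samples. The groups overlapped, yet each cKO sample was above the control sample of its number. Its log2 fold change of 0.67 (SE 0.31) had an edgeR adjusted p of 0.576, and 0.73 with an edgeR adjusted p of 0.0339 with the replicate block, the lowest over 7 alternatives that reached 0.782. With 1 sample left out it ran from 0.41 (without control 1) to 1.1 (without control 3). *Bax* was 128, 117 and 131 TPM in control and 141, 142 and 171 TPM in cKO samples, all cKO samples above all control samples (log2 fold change 0.32, SE 0.14, edgeR adjusted p = 0.56, and from 0.18 to 0.40 on the log2 scale with 1 sample left out). The other death-side members overlapped, with log2 fold changes of -0.11 for *Bcl2l11* (0.04 without cKO 1 and 0.01 without control 3), 0.38 for *Pmaip1* (-0.0035 without control 1), 0.18 for *Bid* and 0.06 for *Bak1* (-0.08 without cKO 3 and -0.03 without control 1).

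None of the 10 members was called between genotypes in DP cells by edgeR, where 17 of 11187 genes (0.152%) were. At an unadjusted p under 0.05, 2 of the 10 members passed (*Bcl2* and *Mcl1*), against 1079 of 11748 genes tested. With the replicate block 2 were called, *Bcl2* lower and *Bbc3* higher, against 1.17% of genes, and by DESeq2 1 (*Bcl2*), against 1.40% of genes. In 3 members the groups did not overlap (*Bcl2* and *Mcl1* lower, *Bax* higher), against 15.1% of genes. With 3 samples against 3 the exact permutation test cannot go below p = 0.1. With any 1 of the 6 samples left out edgeR called 0 to 8 genes and none of the members. The members' median log2 fold change was 0.02, against 0.00 over all genes tested.

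Markers of other cells were read in the same DP samples, and edgeR called 1 of them. *Notch3*, a marker of DN thymocytes, rose from 42.7 ± 5.42 to 83.4 ± 10.6 TPM (SD, n = 3 each), with a log2 fold change of 1.01 (edgeR adjusted p = 0.0415, 0.00836 with the replicate block, and 1.3e-07 by DESeq2). The 4 DN markers summed to 139, 121 and 98.0 TPM in control and 192, 135 and 175 TPM in cKO samples, with 2 above 0 and 2 below. *Ptcra* (63.7 TPM) was the most abundant on average in control and *Notch3* in cKO samples. All 7 markers of mature single-positive cells had log2 fold changes below 0 in cKO, 4 of them with no overlap, with a median of -0.995. Their summed level was 372, 301 and 277 TPM in control and 276, 275 and 235 TPM in cKO samples, and none was at 0. Some that edgeR did not call were called by the alternatives that called *Bcl2*. With the block edgeR called *Il7r* (adjusted p = 0.0166), *Ccr7* (0.024) and *Slfn1* (0.03), and DESeq2 called *Ccr7* (0.00251) and *Slfn1* (0.000941), all lower in each of the 3 pairs. The CD4 marker *Zbtb7b* was called lower with the edgeR block (adjusted p = 0.0319) and by DESeq2 (0.00131). Of the 3 CD4 markers, 2 had log2 fold changes below 0 and 1, *Cd4*, above (0.04). Their sum, mostly *Cd4*, was 1694 ± 199 TPM in control and 1684 ± 115 TPM in cKO samples (SD, n = 3 each). By DESeq2 alone the myeloid or dendritic markers *Lyz2* (adjusted p = 0.006) and *H2-Aa* (0.00938) were called lower. The 7 myeloid or dendritic markers summed to 72.6, 144 and 66.9 TPM in control and 52.7, 51.7 and 64.0 TPM in cKO samples, 6 of them below 0, with *H2-Aa* the most abundant on average over DP samples. The 4 B cell markers tested were all below 0 and summed with the other listed ones to 54.9, 61.9 and 42.1 TPM in control and 40.2, 44.9 and 43.4 TPM in cKO samples, mostly *Cd79b*. The 5 proliferation markers were all above 0, with a median of 0.35 and sums of 656, 638 and 383 TPM in control and 1059, 603 and 562 TPM in cKO samples. *Bcl2* was itself higher in CD8 than in DP samples, and the part of these markers in the DP results was not tested.

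**Figure D4:**
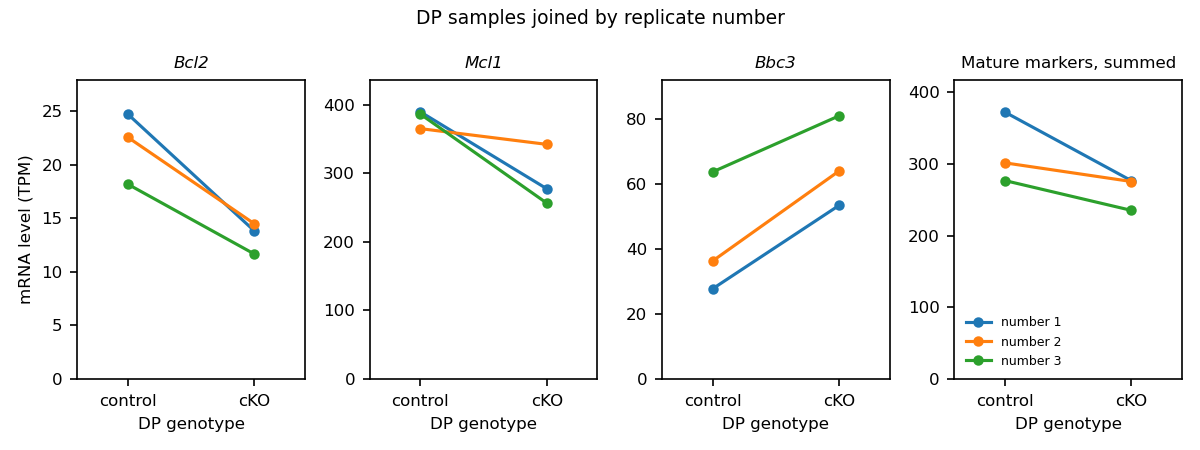
Level in TPM of *Bcl2*, *Mcl1*, *Bbc3* and of the 7 mature single-positive markers summed, in DP control and cKO samples, with lines joining samples of the same replicate number and axes from 0. *Bcl2* and *Mcl1* are lower and *Bbc3* higher in the cKO sample of each of the 3 numbers, and the marker sum is lower in each.

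Among the related genes in DP cells, none of the 11 other Bcl2 family genes, 12 apoptosome and caspase genes, 11 death receptor genes and 16 regulators tested was called between genotypes by edgeR. At an unadjusted edgeR p under 0.05, 3, 1, 1 and 3 of them passed in this order, and 0, 0, 1 and 2 were called with the replicate block and 0 on each list by DESeq2. Over all genes 1079 of 11748 passed unadjusted, and 1.17% were called with the block and 1.40% by DESeq2. Their median log2 fold changes were 0.00, 0.01, -0.06 and -0.04. *Il7r*, one of the mature-cell markers, stood at 15.7 ± 5.53 TPM in control and 7.71 ± 2.98 TPM in cKO samples (SD, n = 3 each), a log2 fold change of -0.995 (edgeR adjusted p = 0.328, 0.0166 with the replicate block, and 0.0637 by DESeq2), and was lower in each of the 3 pairs.

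Between genotypes in CD8 cells, *Bcl2* was 136, 143, 163, 156 and 148 TPM in control and 144, 154, 182, 152 and 196 TPM in cKO samples. The groups overlapped (log2 fold change 0.11, 95% interval -0.07 to 0.30), and the lower bound lies above the -0.67 of DP cells. *Bcl2l1* was 47.2, 41.7, 33.6, 37.0 and 35.1 TPM in control and 40.1, 37.7, 41.9, 40.9 and 40.1 TPM in cKO samples (log2 fold change 0.01, 95% interval -0.23 to 0.26).

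*Mcl1* was 436, 439, 473, 523 and 447 TPM in CD8 control and 330.4, 361, 465, 393 and 427 TPM in CD8 cKO samples. Only cKO 3 reached into the control range. The log2 fold change was -0.27 (SE 0.10, edgeR adjusted p = 0.751, and from 0.267 to 0.908 over 9 alternatives of edgeR or DESeq2), and the exact permutation test of this gene alone gave p = 0.0317, unadjusted over the 10 members, where 0.0079 is the smallest it can give.

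*Bcl2l11* was 109, 117, 109, 108 and 113 TPM in CD8 control and 139.8, 142, 142, 85.8 and 138 TPM in CD8 cKO samples. All control samples lay close together, 4 of the cKO samples were above them and the library labelled cKO 4 was below them. The log2 fold change was 0.18 (SE 0.11, edgeR adjusted p = 0.979) with that library and 0.28 without it (edgeR adjusted p = 0.213), where the adjusted p of edgeR or DESeq2 ran from 0.169 to 1 over 9 other alternatives.

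*Bbc3* was 14.4, 18.5, 56.5, 54.4 and 32.1 TPM in CD8 control and 29.4, 29.8, 78.5, 46.6 and 43.0 TPM in CD8 cKO samples. In both genotypes samples 1 and 2 were the lowest, as they were for *Klf2*. The log2 fold change of 0.33 had a 95% interval of -0.44 to 1.1, and ran from 0.05 (without cKO 3) to 0.56 (without control 4) with 1 sample left out. *Bax* ranged from 61.9 to 114 TPM in control and 71.5 to 105 TPM in cKO samples, and *Bak1* from 111 to 242 TPM and 122 to 178 TPM. For *Bak1* the log2 fold change was 0.00, and 0.26 without CD8 control 1 and -0.04 without the library labelled cKO 4. *Bid* (29.1 to 45.5 TPM in control and 33.1 to 40.4 TPM in cKO samples), *Pmaip1* (2.90 to 9.22 and 7.19 to 8.48 TPM) and *Bcl2a1b* (23 to 63 and 9 to 37 counts) overlapped as well.

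None of the 10 members was called in CD8 cells by edgeR, by DESeq2 or without CD8 control 1 and the library labelled cKO 4, where edgeR called 11 of 11069 genes (0.0994%) with all samples in. That count of genes was 4 without control 3, 6 without control 5, 7 without cKO 3 and 20 without the library labelled cKO 4, with none of the members in any of these. At an unadjusted p under 0.05, 1 of the 10 members passed (*Mcl1*), against 629 of 11227 genes tested. None had groups that did not overlap, against 1.5% of genes. The members' median log2 fold change was 0.02, against -0.01 over all genes tested, and none of the related genes on the other 4 lists was called by edgeR. At an unadjusted edgeR p under 0.05, 1 of 7 other family genes, 1 of 12 apoptosome and caspase genes, 2 of 11 death receptor genes and 0 of 16 regulators passed, beside the same 629 of 11227 genes, and DESeq2 called 0 on each list.

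Markers of other cells were read in the CD8 samples as well. *Sox13*, of the NK or gamma-delta markers, was 3.57 ± 1.81 TPM in control and 8.80 ± 2.68 TPM in cKO samples (SD, n = 5 each), with no overlap (log2 fold change 1.29, edgeR adjusted p = 0.203, and 0.0301 by DESeq2). *Foxp3*, of regulatory T cells, had a median of 9.23 TPM in control and 3.71 TPM in cKO samples (log2 fold change -1.16, edgeR adjusted p = 0.277, and 0.0511 by DESeq2). The other 3 of the 4 regulatory T markers had log2 fold changes above 0, and the 4 summed to 214 ± 32.6 TPM in control and 268 ± 75.4 TPM in cKO samples. The DN markers summed to 50.5 ± 14.2 TPM in control and 73.8 ± 12.5 TPM in cKO samples, with *Kit* the most abundant. The part of these markers in the CD8 results was not tested.

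**Figure D5:**
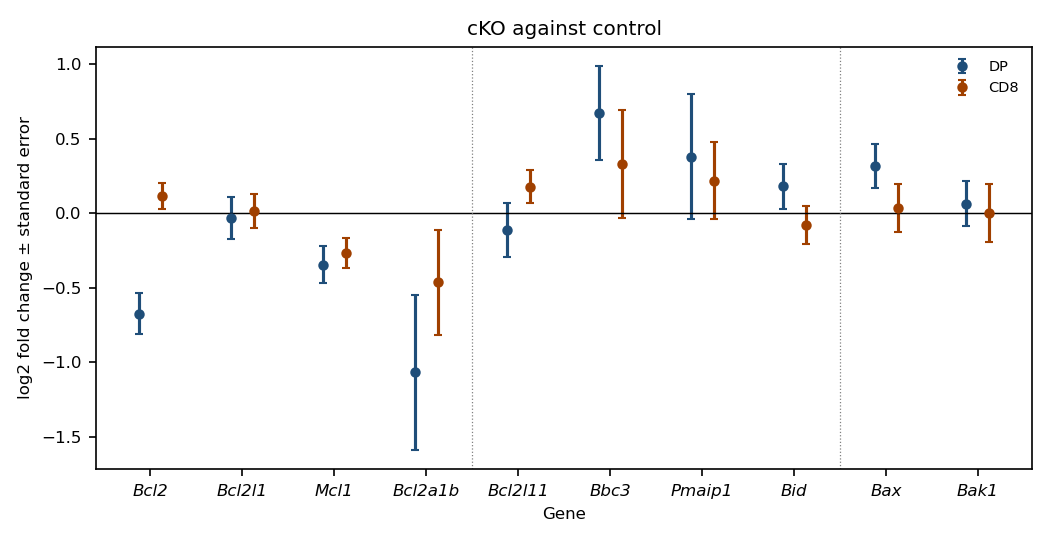
Log2 fold change of each member between cKO and control samples, separately in DP and CD8 cells, with the standard error of the edgeR fit as bars. *Bcl2* lies at -0.67 in DP and 0.11 in CD8 cells, and *Mcl1* at -0.35 and -0.27.

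The difference between these genotype effects was tested in 1 edgeR fit of all 4 groups. For *Bcl2* the effect in CD8 cells was higher than in DP cells by 0.79 on the log2 scale (SE 0.15, edgeR adjusted p = 0.0499, and from 0.000202 to 0.109 over 8 alternatives of edgeR or DESeq2), the only member among the 13 of 12131 genes (0.107%) past an adjusted p of 0.05. The call was lost when any of 14 of the 16 samples was left out, and kept only without DP control 3 or CD8 cKO 1, with adjusted p by edgeR from 0.0222 to 0.213 over the 16, while the difference itself stayed between 0.73 and 0.88. The count of genes ran from 0 to 11. The call was also lost with upper-quartile scaling (edgeR adjusted p = 0.0644), with no filter (edgeR adjusted p = 0.0527), without the CD8 samples numbered 1 (edgeR adjusted p = 0.0708) and without CD8 control 1 and the library labelled cKO 4 (edgeR adjusted p = 0.109), the last 2 alternatives chosen after seeing the data. For *Mcl1* the difference was 0.08 (95% interval -0.26 to 0.42), and for the other 8 members the edgeR adjusted p was 0.95 or higher.

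The balance of both sides was described in each sample as the mean log2(TPM + 1) of the 4 survival genes minus that of the 6 death-side genes. It was 0.72, 0.04 and -0.11 in DP control and -0.33, -0.35 and -0.76 in DP cKO samples. All 3 cKO samples were below all control samples, which themselves spread widely. In CD8 cells it was 1.0, 0.92, 0.46, 0.62 and 0.82 in control and 0.40, 0.42, 0.50, 0.69 and 0.34 in cKO samples, with overlap. With 1 sample left out the difference between cKO and control ran from -0.86 to -0.44 in DP and from -0.37 to -0.23 in CD8 cells. The mean was 0.22 ± 0.45 in DP control (SD, n = 3), -0.48 ± 0.24 in DP cKO (n = 3), 0.76 ± 0.22 in CD8 control (n = 5) and 0.47 ± 0.13 in CD8 cKO samples (n = 5).

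As a ratio of summed TPM, survival over death-side genes, it was 1.52 ± 0.171 in DP control, 1.14 ± 0.230 in DP cKO, 1.58 ± 0.149 in CD8 control and 1.33 ± 0.194 in CD8 cKO samples. On this scale, which *Mcl1* leads, DP and CD8 control samples differed by less than the spread between samples, whereas the mean of logs gives the few counts of *Bcl2a1b* the same weight as *Mcl1*. No p is given for either, since the members were not chosen at random.

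Within the survival side of CD8 cells, the share of *Mcl1* was 68.0, 69.4, 69.7, 71.5 and 68.9% in control and 62.6, 64.1, 66.3, 65.4 and 63.9% in cKO samples. The share of *Bcl2* was 21.2, 22.5, 23.9, 21.3 and 22.7% in control and 27.2, 27.3, 25.9, 25.2 and 29.4% in cKO samples. In both shares the groups did not overlap, although neither gene was called by edgeR on its own (*Mcl1* adjusted p = 0.751, *Bcl2* adjusted p = 0.979). The levels of each gene overlapped between genotypes. As parts of the same sum, the shares of *Mcl1* and *Bcl2* are not independent of each other. These shares were singled out after their values were seen and were not tested.

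By level, the order of members in DP control samples was *Mcl1*, *Bcl2l1*, *Bax*, *Bak1*, *Bcl2l11*, *Bid*, *Bbc3*, *Bcl2*, *Pmaip1* and *Bcl2a1b*, on the TPM scale. *Bax* (125 ± 7.61 TPM) and *Bak1* (124 ± 8.51 TPM), *Bid* and *Bbc3*, and *Pmaip1* and *Bcl2a1b* do not differ beyond their spread (SD, n = 3). In CD8 control samples *Bcl2* ranked 3, at 149 ± 10.5 TPM (SD, n = 5), behind *Mcl1* and beside *Bak1* (149 ± 53.1 TPM), and *Bcl2l1* ranked 6. There *Bcl2l1* (38.9 ± 5.55 TPM), *Bid* (36.9 ± 6.16 TPM) and *Bbc3* (35.2 ± 19.6 TPM) did not differ beyond their spread (SD, n = 5). In DP cKO samples the order was that of DP control except that *Bbc3* stood before *Bid*, and in CD8 cKO samples *Bcl2* stood before *Bak1* and *Bbc3* before *Bcl2l1* and *Bid*, all within the spread of these genes. Among the 11993 genes at 1 TPM or more in CD8 control samples *Bcl2* was at the 88.2 percentile, and among 11589 such genes in DP control samples at the 40.3 percentile.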

How the data were processed

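Thymocyte RNA was measured by strand-specific polyA RNA-seq. The authors filtered reads with fastp 0.13.1, aligned them with HISAT2 2.1.0 to mm10, counted fragments per gene with featureCounts 1.6.1 and deposited raw counts without normalization. Replicates were kept apart, and groups came from the sample labels.

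Each pair of groups was tested with edgeR 4.0.16 (R 4.3.3) by its quasi-likelihood test, with TMM normalization, the filterByExpr filter and Benjamini-Hochberg adjustment over all genes tested. Intervals are 95% intervals of that fit. DESeq2 1.42.0 was an alternative. TPM used the 24974 genes of both tables and the exonic lengths of the DP table. Exact permutation tests were 2-sided and used normalized counts, as did statements on overlap. The tests were checked on simulated data, and figures were drawn with matplotlib. Intervals cover the spread between samples, and PCR fragments are not independent molecules.

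In DP cells samples of the same number deviated together (r = 0.643, 0.120 and 0.290 over genes, mean 0.351), each r over 0.1. The mean between numbers was -0.168. Deviations were taken from group means, so that negative value follows from the positive one and adds no evidence of pairing. Of 6 DP samples, 2 were most like the sample of their own number. Pairing by number is thus a weak hint from the data that the labels do not state. The main DP fit was unpaired, and the fit with the replicate number as a block is given beside it.

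Named genes were *Tox4*, the members, at most 4 called genes with the smallest p per list and direction, and the 5 genes most like each of *Bcl2*, *Bcl2l1* and *Bcl2l11*. Some genes that this rule takes are left out of the text. The members and lists were chosen with earlier results of these data known. Alternatives were RLE and upper-quartile scaling, other filters, DESeq2, the replicate block, 1 fit of 4 groups, adjusted p alone and each sample left out, and for the balance other scales and members.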

Additional observations from a re-analysis of the deposited data

Results flagged for a closer look

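Among 22 sets of 5 CD8 samples looked at (10 members and the balance, in both genotypes), 2 held a sample far from the others, where chance would give about 1.1. *Bcl2l11* in the library labelled CD8 cKO 4 was 85.8 TPM, and the nearest cKO sample was 138 TPM. *Bak1* in CD8 control 1 was 242 TPM, and the nearest control sample was 146 TPM. Both libraries also stand apart in other measures given with the results.

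The genotype effect on *Bcl2* differed between CD8 and DP cells by 0.79 on the log2 scale, by the edgeR interaction test with an adjusted p of 0.0499, and by DESeq2 with 0.000202, while the adjusted p over 8 alternatives of edgeR or DESeq2 reached 0.109. The call was lost when any of 14 of the 16 samples was left out, with an edgeR adjusted p of up to 0.213, while the difference stayed between 0.73 and 0.88. *Bcl2* was lower in all 3 DP cKO samples than in the control sample of the same number.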

How the results depend on the processing

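Member values under alternatives other than leaving out 1 sample were counted for the comparisons between groups and the difference of genotype effects. Of these 416 values, 397 kept their direction and their side of the threshold, 8 lost a call, 5 gained one and 6 changed sign. *Bcl2* and *Bcl2l1* stayed called between CD8 and DP cells under all of these alternatives, in control and in cKO samples. The genotype effect averaged over both cell types was not counted. *Mcl1* and *Bbc3* had an edgeR adjusted p below 0.05 in both of its 2 alternative fits, and *Bcl2* in 1 of them. *Bcl2a1b* could not be fitted with at least 10 counts in every sample, except between control samples. Where a cause is not plain from the alternative itself, it was not tested.

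In DP cells between genotypes, the edgeR count of 17 genes was 74 with no filter, 131 with the replicate block, 159 by DESeq2 and 42 in the fit of 4 groups, and the count of 0 members was 2, 1 and 1 under the last 3. In CD8 cells the count of 11 genes was 31 with the block, 46 by DESeq2, 5 without the CD8 samples numbered 1 and 36 without CD8 control 1 and the library labelled cKO 4. For the difference between genotype effects the count of 13 genes was 3 with upper-quartile scaling, 33 with the block, 36 by DESeq2, and 6 and 7 with those samples left out. DESeq2 starts from all genes with a count. The 1 member there became 0 with upper-quartile scaling, with no filter and with either set of samples left out. Both sets were chosen after seeing the data, as was DESeq2 on the genes of the edgeR filter, which called 159 in DP, 53 in CD8 and 37 for the difference of effects.

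The CD8 samples share only a number, with r of 0.365, 0.299, 0.318, 0.313 and 0.0908 (mean 0.277 against -0.0719). As in DP, the negative mean between numbers follows from taking deviations from group means. Of 10 CD8 samples, 5 were most like that of their own number, against 2 of 6 in DP. With the block no member was called in CD8 cells, where *Mcl1* was lower in all 5 cKO samples than in the control of their number (edgeR adjusted p = 0.267, and up to 0.908 over 9 alternatives). Of the CD8 markers, *Sox13* (edgeR adjusted p = 0.0211) and *Foxp3* (0.00967) were called. Between DP and CD8 control samples the numbers did not go together (r of -0.0114, -0.131 and 0.0494), and CD8 control 4 and 5 have no DP sample of their number. There the block called *Bbc3* lower (-0.77, edgeR adjusted p = 0.0179, and up to 0.743 over 9 alternatives). It kept the difference of effects of *Bcl2* (0.78, edgeR adjusted p = 0.0111, and 0.000202 to 0.109 over 8 alternatives). Apart from these, and *Bcl2* and *Bbc3* between DP genotypes, the block changed no call of a member between groups or in the difference of effects. In the effect averaged over both cell types, the block within each cell type brought *Mcl1*, *Bcl2* and *Bbc3* to an edgeR adjusted p below 0.05.

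*Bak1* changed the sign of its log2 fold change in CD8 cells with upper-quartile scaling (-0.011) and at least 10 counts (-0.0022), between control samples without either set (-0.055), and in the difference of effects (0.11 and 0.15). The balance between CD8 and DP control samples was 0.051 as a log2 ratio of summed TPM and 0.16 without *Bcl2a1b*, and in cKO samples 0.24 and 0.58.

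With each sample left out in turn, the count of genes ran from 0 to 8 in DP, from 4 to 20 in CD8 and from 0 to 11 for the difference of effects, where members ran from 0 to 1. Log2 fold changes whose sign depended on 1 sample were, in DP, *Bcl2l1* (-0.19 to 0.052), *Bcl2l11* (-0.25 to 0.044), *Pmaip1* (-0.0035 to 0.79) and *Bak1* (-0.076 to 0.13). In CD8 they were *Bcl2l1* (-0.038 to 0.10), *Bid* (-0.14 to 0.0035), *Bax* (-0.073 to 0.17) and *Bak1* (-0.079 to 0.26). Between control samples they were *Bbc3* (-0.61 to 0.082) and *Bak1* (-0.055 to 0.28), and for the difference of effects *Bcl2l1* (-0.051 to 0.20), *Pmaip1* (-0.58 to 0.22) and *Bak1* (-0.15 to 0.18). Others kept their sign, and their log2 value moved by a factor above 1.5, a ratio of log2 values and not of expression. They were, in DP, *Bbc3* (0.41 to 1.1), *Bax* (0.18 to 0.40), *Bid* (0.077 to 0.27) and *Bcl2a1b* (-1.36 to -0.56), and in CD8 *Bbc3* (0.046 to 0.56), *Bcl2l11* (0.14 to 0.28), *Pmaip1* (0.029 to 0.40) and *Bcl2a1b* (-0.62 to -0.26). Between the cell types they were *Pmaip1* in control (0.13 to 0.93) and *Bak1* in cKO samples (0.017 to 0.25). For the difference of effects they were *Mcl1* (0.016 to 0.19), *Bcl2a1b* (0.085 to 0.87), *Bcl2l11* (0.14 to 0.41), *Bbc3* (-0.78 to -0.094), *Bid* (-0.36 to -0.16) and *Bax* (-0.40 to -0.13).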

Other observations

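A genotype effect averaged over DP and CD8 cells, in 1 edgeR fit of all 16 samples, was added after seeing the data, because *Mcl1* had a log2 fold change below 0 in both. For *Mcl1* it was -0.31 (SE 0.08, edgeR adjusted p = 0.0781) and for *Bbc3* 0.50 (SE 0.29, edgeR adjusted p = 0.686). For *Bcl2* it was -0.28 (SE 0.07, edgeR adjusted p = 0.0781). That mean joins -0.67 in DP with 0.11 in CD8 cells and describes neither cell type. None of the 10 members passed, and 125 of 12131 genes did. With the replicate number as a block within each cell type, averaged in the same way, *Mcl1* was -0.31, *Bbc3* 0.58 and *Bcl2* -0.28, with edgeR adjusted p of 0.0171, 0.0148 and 0.0196, and 291 of 12131 genes passed. With the block and 1 common effect for both cell types, which is a different quantity from that mean, they were -0.30, 0.55 and -0.17, with edgeR adjusted p of 0.0276, 0.0362 and 0.616, and 157 genes passed. In CD8 cells the samples share only a number.

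*Bcl2a1d*, a near-identical copy of *Bcl2a1b* named after its values were seen, was 5.20 ± 1.46 TPM in DP control and 1.52 ± 0.514 TPM in DP cKO samples (SD, n = 3 each), with a log2 fold change of -1.74 and an edgeR adjusted p of 0.227.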
